A study of Mus musculus with 6 samples.

Results

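The 9 genes described here encode enzymes that make, salvage or clear the deoxynucleotides and pyrimidines that DNA synthesis consumes. They are Rrm1, Rrm2 and Rrm2b (ribonucleotide reductase), Tyms and Tk1 (thymidylate synthesis and salvage), Dut and Dctpp1 (removal of unwanted deoxynucleotides), and Cad and Umps (pyrimidine synthesis from small precursors). They were chosen by gene symbol, and all 9 of the 24794 genes in the count table that carry these symbols passed the filter on low counts that left 13779 genes. The libraries come from Lewis lung carcinoma (LLC) cells, a mouse line that grows in culture and as a transplanted tumour. Cells were transfected either with mimics labelled miR-291-3 (mimic group, 3 libraries) or with a control mimic (control group, 3 libraries). The groups share the cell line, and no other allele, agent, dose or time of harvest is given in the sources used here. The series' design text calls the overexpressed microRNA miR-291a-3p and asks what it does in these cells. Nothing says that the libraries of a group are separate cultures, so a p-value here covers only how far 1 library lies from another of its group, a spread that may be technical.

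Ribonucleotide reductase turns ribonucleotides into deoxyribonucleotides and is the rate-limiting step of their supply. Its large subunit pairs with a small subunit that carries the radical needed for catalysis. Thymidylate is then made from deoxyuridine monophosphate by thymidylate synthase or rescued from thymidine by thymidine kinase, while uridine monophosphate, the parent of all pyrimidines, is built by a short chain of enzymes that begins with CAD and ends with UMP synthase. In dividing cells the mRNAs of several of these enzymes rise at the start of S phase under E2F factors.

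A microRNA finds its targets mainly through its seed, bases 2 to 8, which pairs with matches in the 3' UTR of an mRNA. The mature sequence is shown because the seed matches described for the member genes derive from it (RefSeq, GRCm38.p6, chromosome 7, 3218968 to 3218989, plus strand, seed in capitals).
mmu-miR-291a-3p: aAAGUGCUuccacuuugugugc
The mimic's own sequence is not in the labels, so it is taken to be this strand.

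Total counts ranged from 25376993 to 32963986 per library, and the mimic and control libraries lay on opposite sides of the first principal component (68.7% of the variance of log2 CPM). Values below are CPM, reads scaled to the size of the library and to its composition (TMM), unless they are called FPKM. A gene is said to rise or fall when its adjusted p in edgeR's quasi-likelihood test over all 13779 genes is under 0.05. Of the marker genes, Krt8 and Vim had at least 13685 and 46565 counts in every library. Krt8 rose and Vim fell (log2 change 0.16 and -0.14). Krt18 was far lower than Krt8, with 55 to 71 counts in the control and 78 to 125 in the mimic libraries. It rose 1.87-fold (adjusted p = 2.71e-05, edgeR). Epcam and Cdh1 had at most 3 and 5, and Nkx2-1, Sftpc and Cd3e are not analysed here. The summed level of 6 leukocyte markers was 16.3 to 18.1 CPM in the control and 10.01 to 10.9 CPM in the mimic libraries. It was mostly Cd14 and Lyz2, which both fell, from control means of 9.62 and 5.52 CPM to mimic means of 6.31 and 2.78 CPM. Cd68 did not pass. Ptprc and Adgre1 were at 0 in all but control replicate 2, which held at most 7 counts of each. The summed level of 6 fibroblast and endothelial markers was 29.2 to 33.5 and 21.4 to 26.9 CPM, mostly Pdgfra. Their part in the results was not tested.

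All 3 reductase subunits and both thymidylate enzymes fell in the mimic libraries, with log2 changes of -0.33 to -0.12. The UMP synthesis members Cad and Umps and the dCTP pyrophosphatase Dctpp1 rose by 1.10-fold to 1.35-fold, and Dut did not pass. In all, 5 of the 9 fell and 3 rose, where 24.8% of all tested genes fell and 24.3% rose (49.1% called in either direction). The mimic and control libraries did not overlap in 8 of the 9, against 54.9% of all tested genes: 3 were higher (27.0% of all) and 5 lower (27.9% of all). The median log2 change of the 9 was -0.12, and that of all tested genes was -0.01. By size of log2 change, 13.2% of the tested genes changed more than Dctpp1, 24.5% more than Rrm2 and 61.7% more than Tyms. In RNA from a whole culture, fewer cells in S phase and less RNA per cell cannot be told apart.

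**Figure D1:**
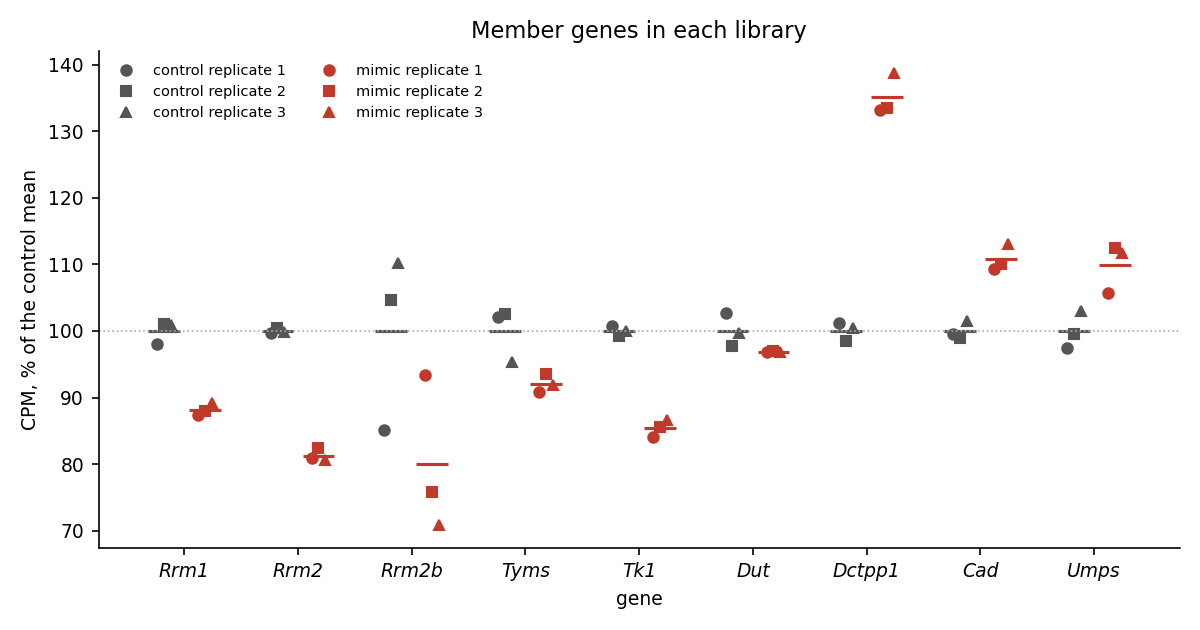
CPM of each member gene in each library, as a percentage of that gene's control mean. Grey marks are the 3 control and red marks the 3 mimic libraries, with a horizontal line at each group's mean. The 3 mimic libraries lie below all controls for Rrm1, Rrm2, Tyms, Tk1 and Dut and above all controls for Dctpp1, Cad and Umps, and the groups overlap for Rrm2b.

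Rrm2 (ENSMUSG00000020649.12, chromosome 12, 24708241 to 24714146 in GRCm38) encodes the small subunit that cycling cells use, a protein whose amount rises and falls with S phase. Its mRNA was at 439, 442 and 439 CPM in control libraries 1, 2 and 3 and at 356, 362 and 354 CPM in the mimic libraries. The lowest control library stood well above the highest mimic library, and within a group the libraries differed little. The mean went from 439.9 ± 1.99 to 357 ± 4.28 CPM (SD, n = 3 each), so that Rrm2 fell by 18.7% (adjusted p = 6.4e-14, edgeR).

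Rrm1 (ENSMUSG00000030978.11, chromosome 7, 102441695 to 102469771 in GRCm38) encodes the large subunit, which holds the active site and the allosteric sites. It was at 246, 253 and 253 CPM in the control and 219, 220.5 and 224 CPM in the mimic libraries. Again no mimic library reached the lowest control. The mean went from 251 ± 4.12 to 221 ± 2.39 CPM, a log2 change of -0.18 ± 0.02 (SE, adjusted p = 2.35e-08).

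Rrm2b (ENSMUSG00000022292.17, chromosome 15, 37923952 to 37961318 in GRCm38) encodes the alternative small subunit, which p53 induces after DNA damage and which supplies deoxynucleotides for repair and for mitochondrial DNA in cells that do not divide. It was the least expressed of the 9, with 220, 259 and 318 reads in the control libraries and 200, 180 and 173 in the mimic libraries. As CPM these were 7.30, 8.98 and 9.46 against 8.02, 6.50 and 6.08. Control replicate 1 lay below mimic replicate 1, so the groups overlapped. The log2 change was -0.33 ± 0.11 (SE, adjusted p = 0.01, edgeR), and it did not pass without control replicate 3 (-0.25, adjusted p = 0.0851), without mimic replicate 3 (-0.24, adjusted p = 0.0878), with the DESeq2 Wald test (adjusted p = 0.0626) or with limma on FPKM. Over the 15 alternatives its adjusted p ran from 0.00138 to 0.0878.

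The 2 small subunits are related genes, but their annotated transcripts share no identical stretch longer than 26 bases, far less than the 150 nt reads.

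The balance of the subunits was read as ratios within a library. The scaling of libraries cancels in them, whereas the size of an FPKM ratio, but not its relative difference between the groups, depends on the gene lengths used. The FPKM ratio of Rrm2 to Rrm1 was 7.09, 6.94 and 6.90 in the control and 6.45, 6.53 and 6.29 in the mimic libraries, so that every mimic library was lower. The log2 ratio of CPM differed by -0.12 ± 0.02 (SE). With 3 libraries against 3 the exact two-sided permutation test cannot go below 0.1, which is the p obtained (0.15 adjusted over 3 ratios). The FPKM ratio of Rrm2b to Rrm2 was 0.00506, 0.00618 and 0.00657 in the control and 0.00685, 0.00542 and 0.0052 in the mimic libraries. These values overlapped, with a difference in log2 CPM ratio of -0.02 ± 0.17 (exact permutation p = 1, also after adjustment), so a shift between the small subunits was not detectable with the counts Rrm2b gave.

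**Figure D2:**
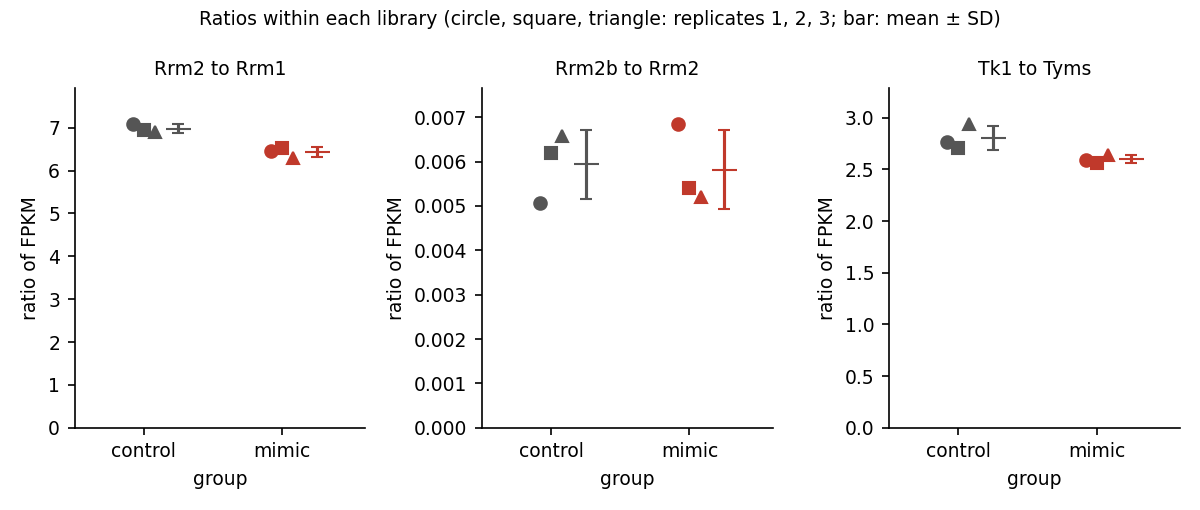
Ratio of deposited FPKM values of 2 genes within each library, for Rrm2 to Rrm1, Rrm2b to Rrm2 and Tk1 to Tyms, from left to right. Marks are single libraries and the bar beside them is the mean with its SD (n = 3). The mimic libraries lie below the control libraries in the panels of Rrm2 to Rrm1 and Tk1 to Tyms and among them in the middle panel.

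Seed matches separated the subunits too. In the GENCODE M21 annotation of GRCm38, an older build than the GRCm39 of the submitters' processing notes, the longest 3' UTR of Rrm2b holds the longest class of match. This is an 8mer, AGCACTTA, at bases 374 to 381 of 3293, in the last of its 9 exons (chromosome 15, 37926864 to 37926871, minus strand). Tyms holds a 7mer-m8 match, AGCACTT, at bases 458 to 464 of 2169 (chromosome 5, 30060532 to 30060538, minus strand, in the last of 7 exons) and a pair of 7mer-A1 matches, GCACTTA, further on. Rrm1 and Rrm2 each hold a single 6mer, GCACTT, the shortest class. The sites and their surroundings are shown 5′ to 3′, matched bases in capitals, because they distinguish the members with a strong match from those with a weak match.
Rrm2b 8mer: tttttgtcataAGCACTTAagatggcatta
Tyms 7mer-m8: cttcaggtagaAGCACTTgcagtccctcaa
Tyms first 7mer-A1: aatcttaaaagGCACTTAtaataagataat
Tyms second 7mer-A1: ggagattcaatGCACTTAggttttttttgt
Rrm1 6mer: atgcagtatttGCACTTgtatggcttgcat
Rrm2 6mer: aaataaaattgGCACTTtgcacacacacac
The 3' UTRs of Tk1, Dut, Cad, Umps and Dctpp1 hold none of these words. In the coding sequence, Dut holds a 7mer-m8 match and Rrm1 a 7mer-A1. Among 11585 tested genes with an annotated 3' UTR, 3.59% had an 8mer as their best match and 20.9% had a match of 7 or 8 bases. Both members with such a match fell, Rrm2b not in every alternative, where 24.8% of all tested genes fell. Of the 7 without, 3 fell, 3 rose and 1 did not pass. How many of all tested genes with such a match fell was not counted, so these counts say nothing about an effect of a match. A match is a description of the sequence and not a shown target site.

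The promoters of Rrm1 and Rrm2 are shown because these members encode the subunits that cycling cells pair (RefSeq, GRCm38.p6, 250 bases before to 50 after the start). Capitals mark matches on either strand to CCAAT, to the E-box CACGTG, or to any of 4 E2F words. These are TTGGCGC with its variants of the middle letters, namely TTCCCGC beside TTCGCGC as well as TTGCCGC. No matches overlapped in the members. The Rrm1 promoter (chr7:102441445-102441744, plus strand) holds CCAAT at -91 and -45 and TTCCCGC at -67. The Rrm2 promoter (chr12:24708004-24708303, plus strand) holds CCAAT at -50 and TTGCCGC on the other strand at -235.
Rrm1: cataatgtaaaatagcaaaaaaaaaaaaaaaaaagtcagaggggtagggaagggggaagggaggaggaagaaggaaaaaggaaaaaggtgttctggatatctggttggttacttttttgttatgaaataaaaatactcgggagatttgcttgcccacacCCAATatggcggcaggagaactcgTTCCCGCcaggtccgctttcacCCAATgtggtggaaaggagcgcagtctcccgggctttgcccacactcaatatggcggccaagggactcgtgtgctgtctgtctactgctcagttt
Rrm2: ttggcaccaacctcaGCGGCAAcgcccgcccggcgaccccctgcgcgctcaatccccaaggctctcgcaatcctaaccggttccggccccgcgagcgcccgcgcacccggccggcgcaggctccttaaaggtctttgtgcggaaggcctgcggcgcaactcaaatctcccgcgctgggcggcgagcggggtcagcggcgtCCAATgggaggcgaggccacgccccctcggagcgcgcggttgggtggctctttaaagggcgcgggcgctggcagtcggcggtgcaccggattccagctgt
Of 32851 promoters of this length, 37.4% hold CCAAT, 9.57% at least 1 of the E2F words and 7.15% CACGTG. Of the other members, Cad holds TTGCCGC at +37, Dctpp1 holds CCAAT on the other strand at -130 and -31, and Tyms holds CACGTG at -61. The RefSeq table matched 8 of the 9 members by symbol, all but Rrm2b. Tk1, Dut and Umps hold none of the 6 words in this window. For Dut the window (chr2:125247265-125247564, plus strand) lies inside the GENCODE gene, which starts at 125247190. No bases before that start were searched.

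Tyms (ENSMUSG00000025747.13, chromosome 5, 30058202 to 30073617 in GRCm38) encodes thymidylate synthase, which methylates deoxyuridine monophosphate with a folate donor. It was at 96.7, 97.1 and 90.3 CPM in the control libraries and 86.0, 88.5 and 87.0 CPM in the mimic libraries. The gap between the groups was narrow because control replicate 3 was low. The mean went from 94.7 ± 3.84 to 87.2 ± 1.30 CPM, so that Tyms fell by 7.83% (adjusted p = 0.00211, edgeR). Its processed pseudogene Tyms-ps, with an identical stretch of up to 95 bases, had at most 2 counts in any library.

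Tk1 (ENSMUSG00000025574.14, chromosome 11, 117815526 to 117826092 in GRCm38) encodes the cytosolic thymidine kinase that salvages thymidine during S phase. It was at 228, 225 and 227 CPM in the control and 190.4, 194 and 196 CPM in the mimic libraries. All mimic libraries were below all controls by many times the spread within a group. The mean went from 227 ± 1.78 to 194 ± 3.00 CPM, so that Tk1 fell by 14.5% (adjusted p = 4.06e-10). The FPKM ratio of Tk1 to Tyms was 2.76, 2.71 and 2.94 in the control and 2.59, 2.57 and 2.64 in the mimic libraries, again without overlap. With transcript lengths in place of those behind the FPKM, the ratio over all 6 libraries was 5.07. The log2 CPM ratio differed by -0.11 ± 0.04 (SE, exact two-sided permutation p = 0.1, the smallest possible, and 0.15 adjusted).

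Dut (ENSMUSG00000027203.16, chromosome 2, 125247190 to 125258608 in GRCm38) encodes dUTPase, which keeps uracil out of DNA by cutting dUTP to the monophosphate that thymidylate synthase uses. It was at 305, 289.9 and 296 CPM in the control libraries and at 287, 288 and 287 CPM in the mimic libraries. The groups did not overlap, yet the distance from the lowest control was small beside the spread of the controls, and the log2 change of -0.05 ± 0.02 (SE) did not pass (adjusted p = 0.0795, edgeR). It passed as a decrease with total counts only (-0.10, adjusted p = 0.00016), with limma on FPKM, with at least 2 CPM in 3 libraries, and without control replicate 2 (-0.06, adjusted p = 0.0347). Over the 15 alternatives its adjusted p ran from 0.00016 to 0.379.

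Dctpp1 (ENSMUSG00000042462.5, chromosome 7, 127256959 to 127260709 in GRCm38) encodes a pyrophosphatase that cuts dCTP and modified forms of it. It had the largest change of the 9 in either direction. The control libraries held 62.5, 60.9 and 62.0 CPM and the mimic libraries 82.3, 82.5 and 85.7 CPM. The mean rose 1.35-fold, from 61.8 ± 0.841 to 83.5 ± 1.90 CPM (adjusted p = 7.17e-13). The lowest mimic library stood above the highest control by many times the spread within a group.

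Cad (ENSMUSG00000013629.17, chromosome 5, 31054780 to 31078479 in GRCm38) encodes the protein that carries out the opening reactions of pyrimidine synthesis. It was at 258, 257 and 263 CPM in the control and 283, 285 and 293 CPM in the mimic libraries, with no overlap. The log2 change was 0.15 ± 0.02 (SE, adjusted p = 7.34e-07, edgeR). Umps (ENSMUSG00000022814.7, chromosome 16, 33954782 to 33967038 in GRCm38) encodes the enzyme of the closing reactions, which yield uridine monophosphate. It was at 138, 141 and 146 CPM in the control and 149.6, 159 and 158 CPM in the mimic libraries. The groups were separated by less than the spread of the control libraries, since mimic replicate 1 stood close to control replicate 3. The mean went from 141.5 ± 3.98 to 156 ± 5.25 CPM (log2 change 0.14 ± 0.03 SE, adjusted p = 8.1e-05).

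Across the main fit and 15 alternatives every member kept its direction. Rrm1, Rrm2, Tyms, Tk1, Dctpp1, Cad and Umps passed in all of them. The scaling matters for small changes: with total counts only, 65.5% of all calls were decreases in place of 50.5%. There Cad and Umps had log2 changes of 0.09 and 0.08, and Umps had an adjusted p of 0.0125 (edgeR). The highest adjusted p of Umps in any alternative was 0.0371, with limma on log2(FPKM + 1).

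**Figure D3:**
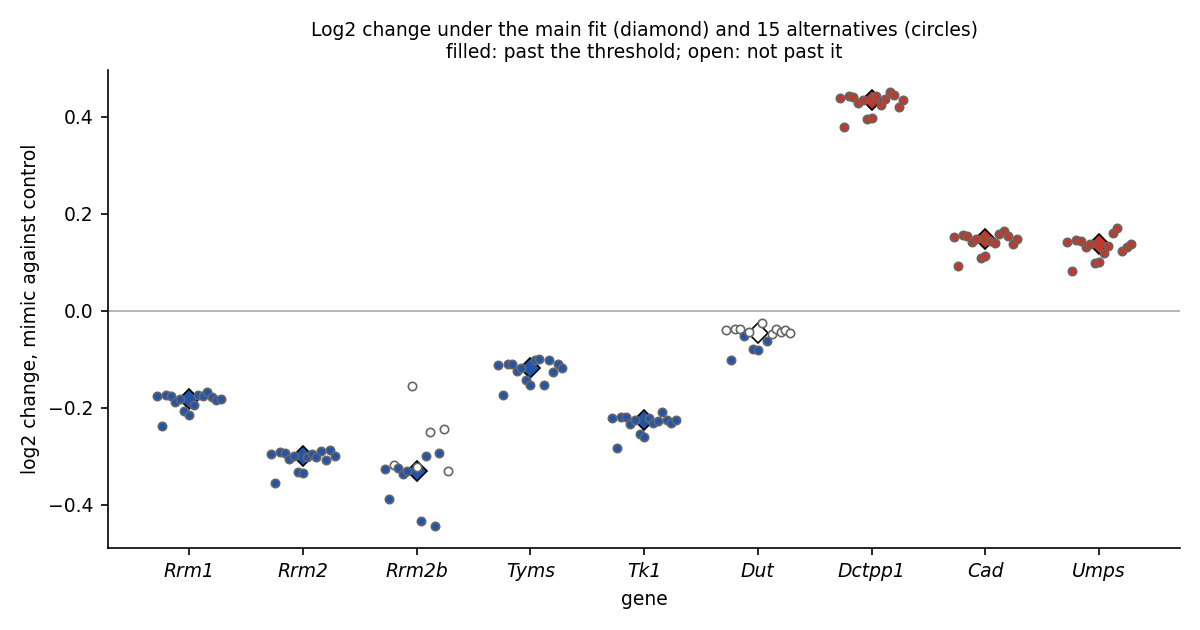
Log2 change of each member gene, mimic against control, in the main fit (diamond) and in 15 alternative analyses (circles). Filled marks passed the threshold and open marks did not. Rrm2b and Dut are the genes with both kinds of mark, and no gene has marks on both sides of 0.

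Compared per length, the 9 genes spanned a wide range. The mean FPKM over the control libraries was highest for Rrm2 (141 ± 1.24), followed by Dut (109 ± 2.44), Dctpp1 (81.1 ± 0.811), Tk1 (38.7 ± 0.208), Umps (36.0 ± 0.96), Cad (28.1 ± 0.28), Rrm1 (20.2 ± 0.369), Tyms (13.8 ± 0.605) and Rrm2b (0.837 ± 0.112; SD, n = 3). In the control libraries each neighbour in this order lay apart from the next. In the mimic libraries Dctpp1 (107 ± 1.69) stood above Dut (103 ± 1.19), and Umps (38.7 ± 1.44) above Tk1 (32.2 ± 0.509), so that these 2 pairs changed places by FPKM. The order depends on the length used. The CPM and FPKM of Rrm1 and Tk1 together imply lengths of 12.6 and 5.93 kb, against 3.997 and 1.44 kb for their annotated transcripts. With the transcript length Rrm2 stood 3.08-fold above Rrm1, Tk1 moved from place 5 to place 3 over all 6 libraries, and 4 of the 9 kept their place. Neither exchange was seen with it: in the mimic libraries Dut was at 147 ± 0.12 and Dctpp1 at 124 ± 2.81 CPM per kb, and Tk1 at 134 ± 2.08 and Umps at 44.7 ± 1.51 (SD, n = 3), each pair in the same order as in the control libraries. By that length Tk1 and Dut changed places instead, from 157 ± 1.24 and 152 ± 3.78 CPM per kb in the control libraries, where their ranges overlapped. Rrm2 was the highest and Rrm2b the lowest by either length.

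**Figure D4:**
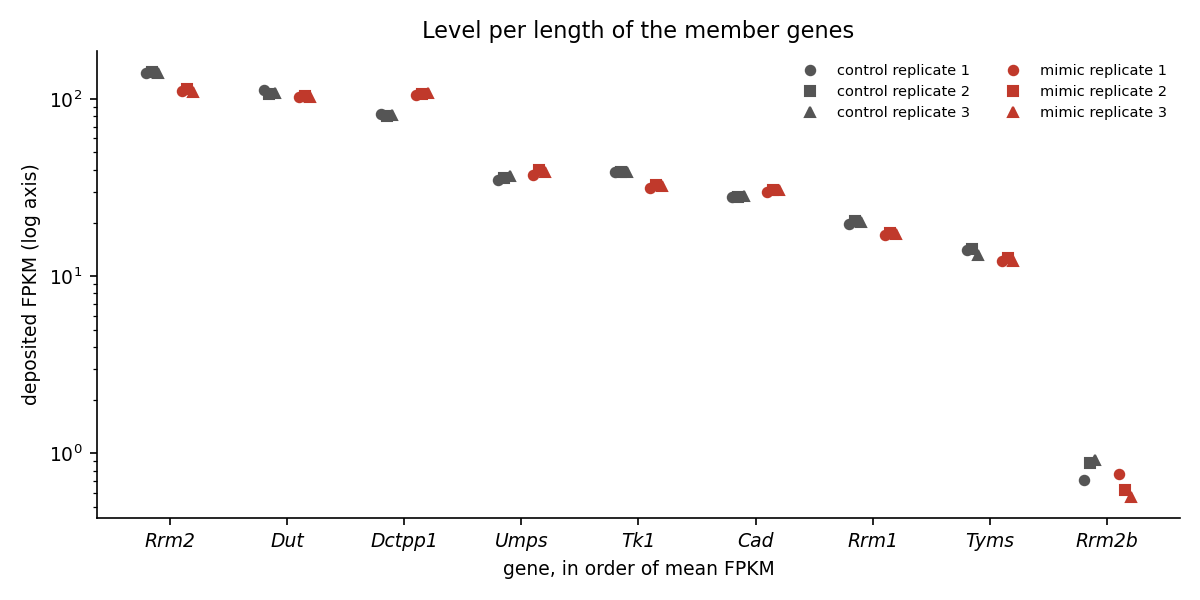
Deposited FPKM of each member gene in each library on a log axis, ordered by the mean over all libraries. Grey marks are control and red marks mimic libraries. By FPKM, Dctpp1 and Dut change places between the groups, and so do Umps and Tk1.

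Dhodh, the mitochondrial enzyme between Cad and Umps, rose 1.40-fold from 28.3 ± 0.835 to 39.6 ± 0.705 CPM. Ctps, which makes CTP from UTP, rose 1.23-fold and the uridine-cytidine kinase Uck2 1.28-fold. The kinase family member Nme6 rose 1.33-fold. Among the other genes of pyrimidine synthesis and salvage 9 of 20 tested rose (45%, against 24.3% of all tested genes). Another 6 fell (30%, against 24.8%), and the median log2 change was 0.11. Those that fell include salvage enzymes and a transporter: the deoxycytidine kinase Dck (-0.32), Uckl1 (-0.38), the cytidine deaminase Cda (-0.25) and the nucleoside transporter Slc29a1 (-0.15, all on the log2 scale). Dctd, which makes the substrate of thymidylate synthase from dCMP, rose 1.13-fold. Cmpk1 (log2 change -0.06) and Dtymk, which phosphorylates thymidylate (-0.01), did not pass, and neither did the mitochondrial thymidine kinase Tk2 (-0.07). Other kinases of the family of Nme6 were called: Nme1 and Nme2 rose (log2 change 0.23 and 0.17). Nme4 fell (-0.15), a call lost with the DESeq2 Wald test. With total counts only, Cmpk1 and Dtymk were called lower.

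Most folate genes rose while Tyms fell. Where 24.3% of all tested genes rose, 8 of the 10 tested genes of this list did. They include the reduced folate carrier Slc19a1 (1.41-fold), the cytosolic serine hydroxymethyltransferase Shmt1 (1.22-fold), Fpgs, which traps folates in the cell (1.23-fold), and Mthfd1 (1.06-fold). With total counts only 4 of them rose, and Mthfd1 did not pass (adjusted p = 0.315, edgeR).

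Of 14 tested genes of nucleotide breakdown and pool cleansing, 4 fell (28.6%, against 24.8% of all tested genes) and 1 rose (7.14%, against 24.3%). The share that fell was near that of all tested genes. The 4 that fell were the mitochondrial nucleotidase Nt5m (log2 change -0.27), Nudt1, which removes oxidised purine nucleotides (-0.32), the mitochondrial kinase Dguok (-0.15) and the adenosine deaminase Ada (-0.14). Dguok was placed in this list but is a kinase of salvage and not an enzyme of breakdown. Dguok and Ada did not pass with the DESeq2 Wald test. Itpa, which removes inosine triphosphate, rose 1.05-fold, a call lost with total counts only (adjusted p = 0.698, edgeR). No gene of the list rose without control replicate 2, mimic replicate 2 or mimic replicate 3, and 2 rose without mimic replicate 1. Samhd1, the main enzyme that degrades deoxynucleoside triphosphates, had a log2 change of -0.05 that did not pass (adjusted p = 0.159), but was called lower with total counts only. The counts for this list also varied when a library was left out: without control replicate 1, and without control replicate 3, 2 genes fell.

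Most genes of purine synthesis rose, as Cad and Umps did. Of 17 tested genes 12 rose (70.6%, against 24.3% of all tested genes) and 1 fell (5.88%, against 24.8%). The median log2 change was 0.16. Atic, which carries out the last steps to inosine monophosphate, rose 1.22-fold, Impdh1, which commits it to guanine nucleotides, 1.35-fold, and Adsl, which acts before Atic and again on the way to adenine nucleotides, 1.17-fold. The gene that fell was Adssl1 (log2 change -0.62), the adenylosuccinate synthase known from muscle, while Adss, its widely expressed counterpart, did not pass (0.04 with TMM and -0.01 with total counts only). With total counts only 11 rose and 3 fell.

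**Figure D5:**
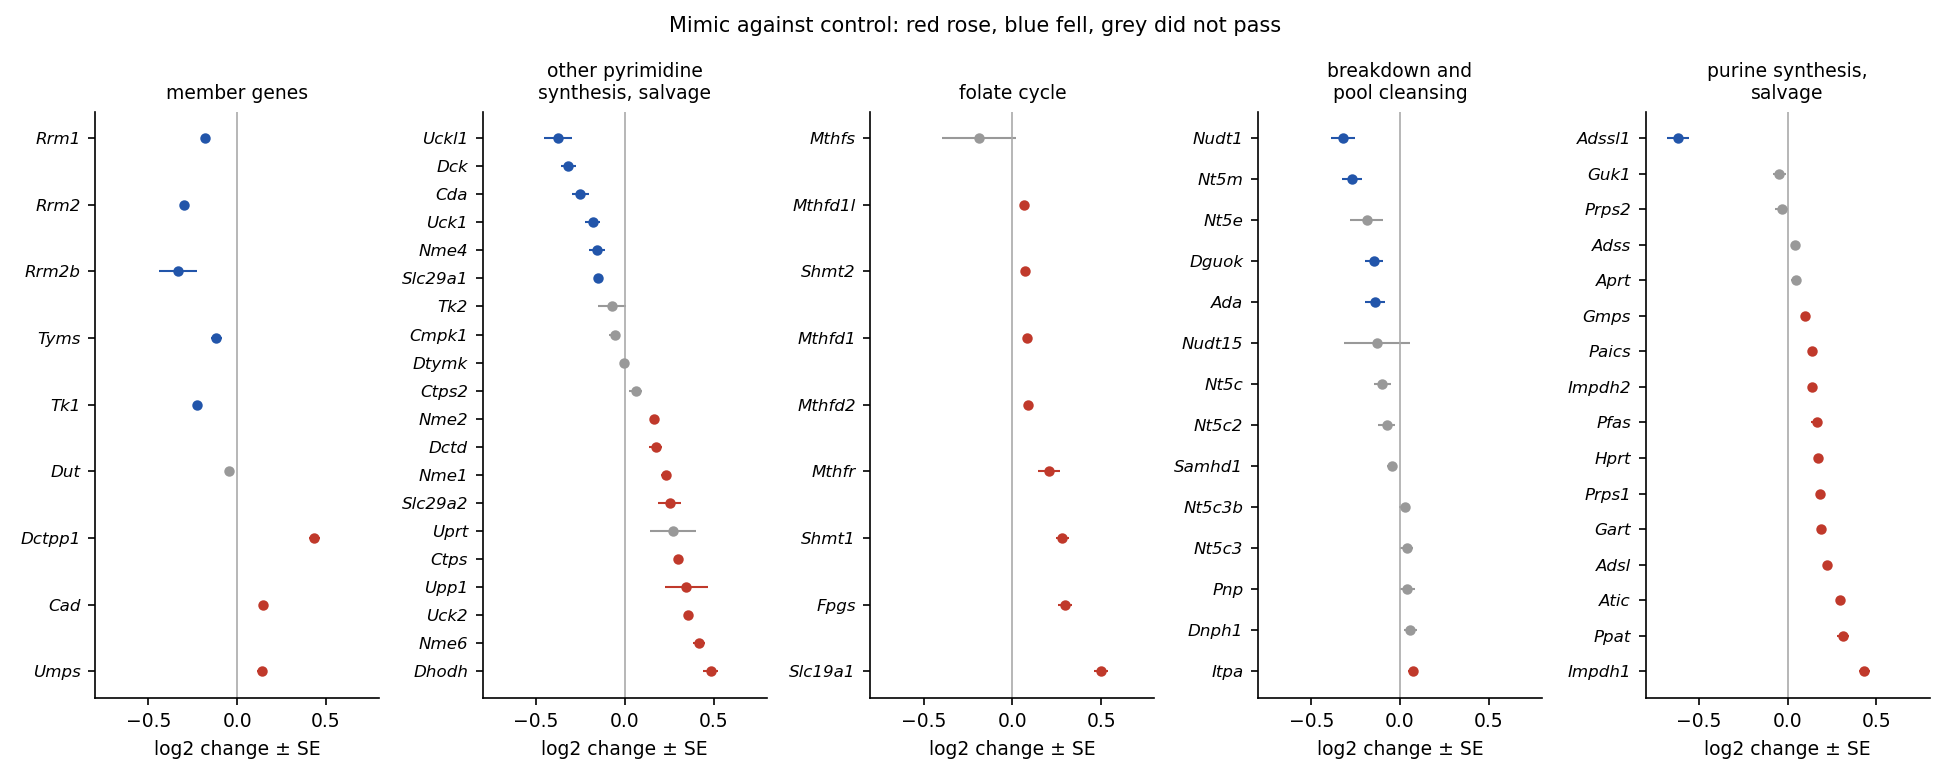
Log2 change with its SE for the 9 member genes and for some tested genes of 4 related lists, mimic against control. Red points rose, blue points fell and grey points did not pass (edgeR, adjusted p under 0.05). The reductase and thymidylate genes of the first panel lie left of 0, while Cad, Umps, Dctpp1 and most of the folate and purine genes drawn rose.

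A strong seed match did not mark these neighbours in a single direction. Genes of the 4 related lists with a match of 7 or 8 bases are named here for their sites, after their values were seen. Uck1 fell (log2 change -0.18), Uck2 (0.36) and Gmps (0.10) rose, and Nt5c2 (-0.08), Pnp (0.04, and -0.02 with total counts only) and Prps2 (-0.03) did not pass. Gmps has an 8mer and the others named a 7mer-m8. With total counts only Gmps did not pass (adjusted p = 0.107), whereas Prps2 and Nt5c2 were called lower. Among the 54 tested genes of these lists without such a match 28 rose and 10 fell, where 24.3% of all tested genes rose and 24.8% fell.

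Across the 6 libraries Rrm2 separated the groups, and any gene that separates them the same way is like it. Over the 8755 genes that averaged 10 CPM or more, Septin2 (Pearson r = 0.9996), Slc41a2 (0.9995) and Dcaf7 (0.9995) were most like it in log2(CPM + 1), and Fbl (-0.9998), Eef1d (-0.9995) and Fstl1 (-0.9992) most unlike it. Among the members Tk1 (0.988) and Rrm1 (0.982) were closest, Tyms had 0.866, Dut 0.721 and Rrm2b 0.697, and Dctpp1 (-0.997), Cad (-0.976) and Umps (-0.869) ran opposite. These coefficients describe 6 libraries in 2 groups and carry no test.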

How the data were processed

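Polyadenylated RNA was sequenced as strand-specific paired-end libraries, per the labels' protocols. HISAT2, DESeq2 and GRCm39 appear in the submitters' processing notes. How reads were assigned to genes, on which strand and with which annotation is not given in the sources used here. Per gene, the authors deposited read counts (24794 genes) and FPKM values rounded to 2 decimals (24494 genes). Groups came from the sample titles. In each pair of libraries of a group, counts differed by more than sampling noise (mean chi-square per gene 1.86 to 2.22), so each counted once.

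The test on counts was edgeR 4.0.16, run in R 4.3.3 (filterByExpr, TMM, glmQLFit, glmQLFTest, Benjamini-Hochberg over 13779 genes, threshold 0.05). The SE is the log2 change divided by the square root of F. The fit was tested on simulated data. Alternatives were DESeq2 size factors, total counts only, DESeq2 1.42.0, at least 2 CPM in 3 libraries, no filter at all, limma 3.58.1 on log2(FPKM + 1) and log2(FPKM + 0.1), a replicate block, each library left out, and a threshold of 0.01. Ratios used exact permutation tests over libraries. Named genes are the 9 members, up to 4 called genes per direction and list with the smallest adjusted p, the neighbouring steps, and the 3 genes most like and most unlike Rrm2. Members and lists were chosen with earlier results of these data known. Of the lists' genes, those absent from the count table under the listed symbol were not analysed here. Some genes counted in the lists are not reported here by name.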

Additional observations from a re-analysis of the deposited data

How the results depend on the processing

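The 9 members had 15 alternatives each, and none reversed. Rrm2b no longer passed with the DESeq2 Wald test (-0.32), limma with a pseudocount of 1 (-0.15) or 0.1 (-0.32), or at a threshold of 0.01 (-0.33, adjusted p = 0.01002). With a library left out its log2 change ran from -0.44 to -0.24. The log2 change of Dut passed with total counts only (-0.10), with at least 2 CPM in 3 libraries (Dut -0.0521) and with limma (Dut -0.0798 and -0.0805 for the pseudocounts 1 and 0.1). With a library left out Dut ran from -0.0616 to -0.0264. The difference in the log2 ratio of Rrm2b to Rrm2 was -0.02 and ran from -0.144 to 0.0533 with a library left out. It turned positive without control replicate 2 (0.0101), control replicate 3 (0.0525), mimic replicate 2 (0.0205) or mimic replicate 3 (0.0533).

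With total counts only the breakdown list had 0 risen and 8 fallen genes, 4 folate genes rose and 3 purine genes fell. No breakdown gene rose with DESeq2, limma, at least 2 CPM in 3 libraries or the threshold of 0.01, and 2 fell with DESeq2 and with that threshold. With limma 3 folate genes rose. With a library left out, 0 to 2 breakdown genes rose and 2 to 4 fell. In the order of levels per length 4 members kept their place with transcript lengths. For these changes the cause was not tested.

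Same-numbered libraries had correlations of deviations of 0.03, 0.07 and 0.06, each higher than with any other number, which is only a hint, since no label pairs them. With the replicate block 3403 genes rose and 3484 fell, and no member or list count changed (Rrm2 -0.30, Dut -0.04 with adjusted p = 0.0515). In 3 pairs the sign-flip test of the ratios cannot go below 0.25. Depth limits Rrm2b, with 173 to 318 reads.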
